A study of Mus musculus with 14 samples.

Results

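Immunity-related GTPases (IRGs) are interferon-inducible GTP-binding proteins of mice that act inside cells against vacuole-dwelling parasites and bacteria. The effector proteins of the family load onto the membrane of the vacuole and break it, and the regulator proteins sit on the cell's own membranes and keep the effectors inactive there. Their genes are transcribed when type II interferon (interferon gamma) or type I interferon reaches a cell, and in the heart both resident and infiltrating cells can carry them. The 9 IRG genes described here were Igtp, Irgm1, Irgm2, Iigp1, Tgtp1, Tgtp2, Ifi47, F830016B08Rik and Gm4951. They were taken by gene symbol from a table of 54532 genes, and all 9 passed the filter on low counts that left 16034 genes for testing.

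Heart tissue RNA from male C57BL/6J mice, 8 weeks old when the study began, was sequenced, 1 library per mouse, in 4 groups. The irradiated mice had received a single local dose of 30 Gy from 60Co γ-rays to the front of the chest, and their hearts were taken 1 day later (IRR_1d, n = 3) or 6 weeks later (IRR_6w, n = 4). Unirradiated mice of the same strain and sex formed Control_1d (n = 3) and Control_6w (n = 4). The field was the chest rather than the heart alone, and heart tissue mixes muscle, vessel, connective tissue and blood-borne cells. Which part of the heart was taken is not given in the sources used here. In such bulk RNA, more cells of a type and more RNA per cell cannot be told apart. The p-values below measure the spread between these mice.

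The nucleotide-binding loop separates the regulators from the effectors. In the usual class its last codons encode glycine, lysine and serine (GKS), and in the regulator class the lysine is a methionine (GMS). In the GENCODE M21 coding sequences 3 members, Igtp, Irgm1 and Irgm2, had the methionine codon and the other 6 had a lysine codon. The codons of the loop are shown for the members on chromosome 11, 5′ to 3′ on the coding strand, with the codon that sets the class in capitals, because they divide the family into the order in which the results are given.
Igtp, Irgm1 and Irgm2: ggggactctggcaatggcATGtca
Tgtp1 and Tgtp2: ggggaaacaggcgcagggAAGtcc
Ifi47: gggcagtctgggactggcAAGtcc
The 24 bases were identical in the 3 regulators although their coding sequences as a whole were 67.0 to 73.0% identical to each other. Tgtp1 and Tgtp2 were identical at 1241 of 1245 coding bases (99.7%).

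Promoter entries, 250 bases before to 50 bases after the gene start in RefSeq on GRCm38.p6, were matched for 6 of the 9 members, all on chromosome 11. The core of the interferon-stimulated response element, a GAAA followed after any 2 bases by a further GAAA and searched on both strands, was found in 5 of the 6. Of all 32851 promoter entries of mouse, 3.44% held it. The 120 bases before the start are shown, on the strand of the gene and with each match in capitals, because the match lay in nearly the same setting in 4 of these genes.
Igtp, chr11:58199436-58199555, plus strand: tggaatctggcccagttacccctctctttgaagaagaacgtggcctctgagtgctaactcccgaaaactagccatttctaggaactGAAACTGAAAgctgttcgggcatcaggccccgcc
Irgm2, chr11:58214857-58214976, plus strand: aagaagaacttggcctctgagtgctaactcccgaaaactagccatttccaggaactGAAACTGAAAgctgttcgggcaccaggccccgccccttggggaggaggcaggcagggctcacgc
Irgm1, chr11:48871421-48871540, minus strand: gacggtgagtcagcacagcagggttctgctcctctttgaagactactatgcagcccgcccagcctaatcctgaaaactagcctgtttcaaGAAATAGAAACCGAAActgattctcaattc
Tgtp1, chr11:48992247-48992366, minus strand: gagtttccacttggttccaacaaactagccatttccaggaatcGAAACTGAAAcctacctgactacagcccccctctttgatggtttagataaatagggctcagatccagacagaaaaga
Tgtp2, chr11:49064213-49064332, minus strand: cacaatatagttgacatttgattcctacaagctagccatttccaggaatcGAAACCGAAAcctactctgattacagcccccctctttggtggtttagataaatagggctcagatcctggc
Ifi47, chr11:49076467-49076586, plus strand: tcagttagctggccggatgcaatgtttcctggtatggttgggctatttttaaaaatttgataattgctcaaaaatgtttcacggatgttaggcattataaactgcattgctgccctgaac
The match began 34 bases before the start in Igtp, 64 in Irgm2, 77 in Tgtp1 and 70 in Tgtp2. Irgm1 held 2 overlapping matches, which began 30 and 24 bases before the start, and the letters were not found in the Ifi47 entry. The core of the gamma-activated site, searched as TTCNNNGAA, was found in Igtp, Irgm2, Tgtp1 and Tgtp2, beginning 45, 75, 88 and 81 bases before the start, and in 8.30% of all entries. Both motifs together were found in 4 of the 6 member entries and in 0.454% of all entries. In GENCODE M21 the Irgm1 window lay inside an exon of a longer noncoding transcript, and 12 bases of the Tgtp1 window lay in an exon. These matches describe the letters of the entries only, and other starts of these genes were not searched.

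The family was spread over a pair of chromosomes in the mm10 (GRCm38) coordinates of the table. Irgm1 lay at chr11:48861968-48871683, Tgtp1 at chr11:48985327-48994172, and Tgtp2 at chr11:49057194-49064206, all on the minus strand, with Ifi47 at chr11:49076587-49096974 on the plus strand beside them. Igtp, at chr11:58199556-58207591, and Irgm2, at chr11:58199618-58222782, formed a separate pair on the plus strand. Gm4951 (chr18:60212080-60247820), F830016B08Rik (chr18:60293380-60303016) and Iigp1 (chr18:60376029-60392627) followed each other on the plus strand of chromosome 18. In GENCODE M21, 8 of the 9 had the same start and end.

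Among the members on chromosome 18, the coding sequences of Iigp1 and Gm4951 were 88.0% identical, and F830016B08Rik was 68.3% identical to Iigp1 and 69.5% to Gm4951. Such similarity bears on how well reads can be given to a single gene. Of all 150-base stretches of the transcripts of Tgtp1, 64.9% also occurred in another gene, in Tgtp2 or in the neighbouring family gene Gm12185, and the share was 68.4% for Tgtp2. Igtp and Irgm2 shared 0.739 and 0.437% of their stretches with each other, and no stretch of the other 5 members was found in another gene's transcripts. The counts of Tgtp1 and Tgtp2 are therefore uncertain one against the other, and both are also given as a sum. Exons of Igtp and Irgm2 overlapped by 162 bases on the same strand, those of Tgtp1 and Gm12185 by 223, and those of Ifi47 and the olfactory receptor gene Olfr56 by 111. Ifi47 also overlapped an antisense gene, Gm12188, by 106 bases. The sources used here do not say whether the counting used strand.

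Libraries held 13336746 to 16837265 counts. Levels below are CPM, counts scaled to a common library size with TMM (trimmed mean of M values) factors. The heart label was borne out in every library by cardiomyocyte transcripts, whose 7 markers summed to 4248 to 39194 CPM. Atrium markers summed to 9.87 to 2812 CPM. Some libraries stood apart. Control_6w 3 had the lowest cardiomyocyte sum and 2463 CPM of 6 thymus markers, against 0 to 39.5 CPM in the other 13 libraries. It also held 1708 CPM of T and NK cell markers, 651 CPM of B cell markers and 679 CPM of brown fat markers. IRR_6w 1 had 355 CPM of 5 lung epithelium markers, against at most 24.8 elsewhere. Its sums of atrium (2812 CPM), brown fat (924 CPM) and B cell markers (869 CPM) were the highest. IRR_1d 3 had the second highest atrium sum, 1166 CPM against 161 and 11.4 CPM in the other IRR_1d hearts, and 289 CPM of brown fat markers against 15.2 and 10.7 CPM. Of the genes with a mean of at least 5 CPM in the other libraries, 4.57% stood at 3 or fewer counts in Control_1d 1, 2.61% in IRR_6w 3 and 1.02% in IRR_6w 4, against 0 to 0.685% in the rest. Results are given with and without Control_6w 3 and IRR_6w 1, the set of Control_1d 1, IRR_6w 3 and IRR_6w 4, and, at 1 day, IRR_1d 3.

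Per kilobase of the deposited gene length (FPKM, from the scaled CPM), Iigp1 stood at a mean level of 35.1 ± 21.5 (SD, n = 3) in Control_1d, 47.9 ± 17.4 (n = 3) in IRR_1d, 16.9 ± 4.80 (n = 4) in Control_6w and 58.0 ± 21.7 (n = 4) in IRR_6w. By the deposited lengths it ranked first in each group, but its deposited length of 3121 bases is shorter than the 5823 bases that all its exons cover in GENCODE M21, the basis on which the other 8 lengths rest. Over 5823 bases the mean of Iigp1 came to 18.8 FPKM in Control_1d and 25.7 FPKM in IRR_1d, and at 6 weeks to 9.08 FPKM in controls and 31.1 FPKM in irradiated hearts. It then ranked below Igtp and Irgm2 in Control_6w and below Igtp in IRR_6w, so its place depended on the length used. In Control_6w the other members followed as Igtp (12.7 FPKM), Irgm2 (11.3), Ifi47 (7.72), Irgm1 (5.43), Tgtp2 (4.54), Tgtp1 (2.56), F830016B08Rik (1.02) and Gm4951 (0.995). Every pair of neighbours in that order overlapped in range, with Iigp1 at either place. In IRR_6w the order of the others was Igtp (33.6), Irgm2 (28.1), Irgm1 (19.2), F830016B08Rik (17.7), Ifi47 (17.5), Gm4951 (5.51), Tgtp2 (3.95) and Tgtp1 (2.49), again with overlapping neighbours, Iigp1 included. F830016B08Rik thus stood at rank 8 in the 6-week controls and at rank 5 in the irradiated hearts. In both 1-day groups Iigp1 had the highest mean with either length. By the deposited length it was above the range of the next gene, Irgm2, in both groups, and over all exons in Control_1d but not in IRR_1d. All other neighbours overlapped. The deposited length of Irgm1 (5810 bases) counts all exons of its transcripts, while its coding transcript is 2259 bases long, so its level per length may be understated.

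**Figure D1:**
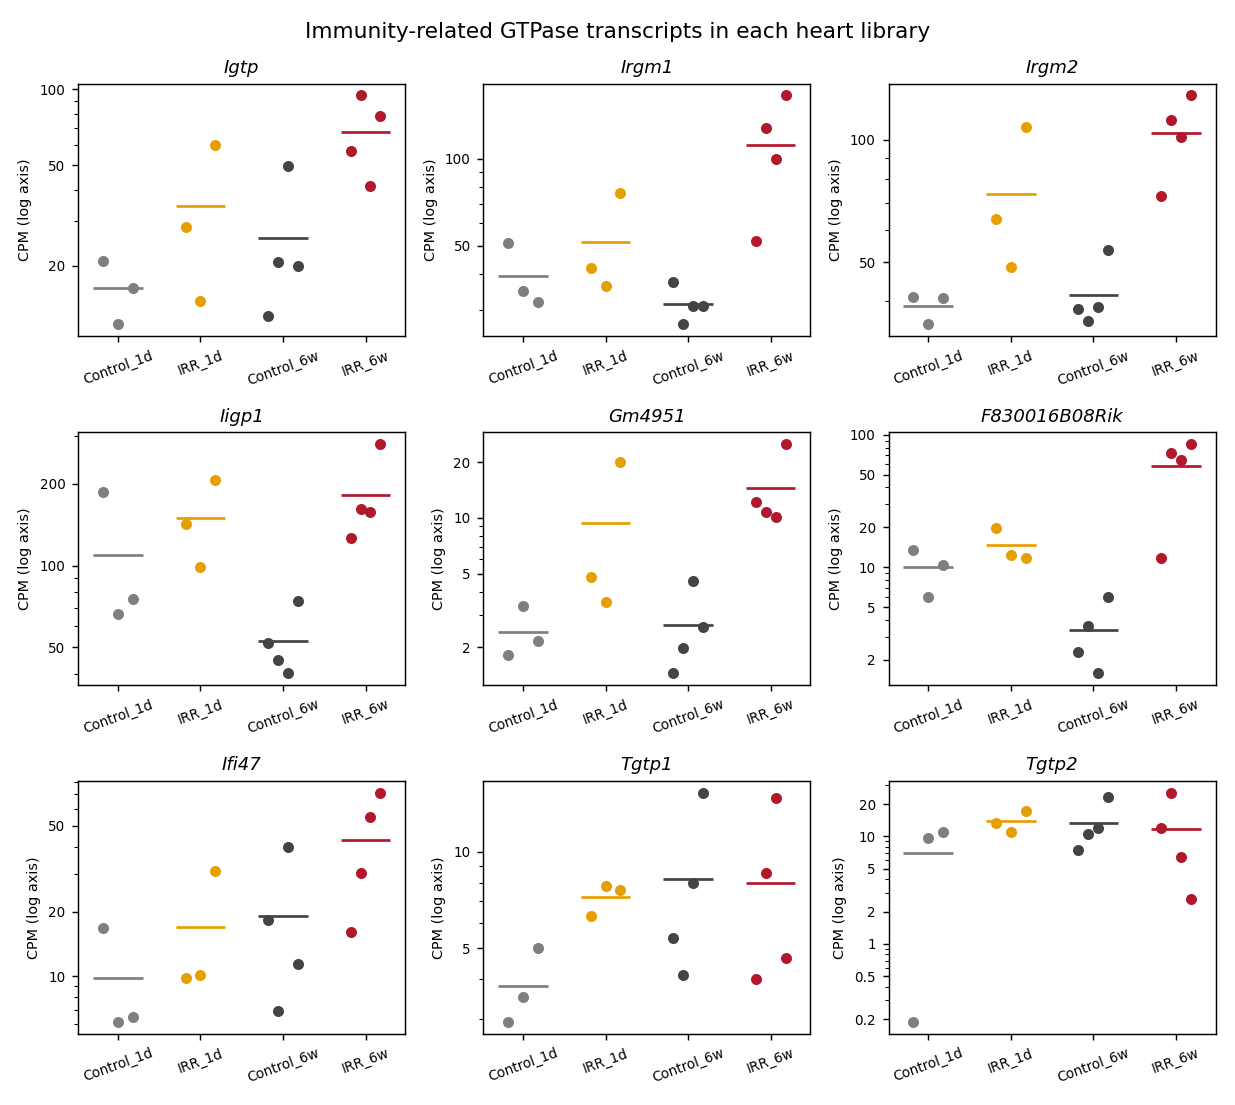
Level of each IRG gene in CPM (counts scaled by library size and TMM factor, log axis) in the 14 heart libraries, by group (points, 1 library each; lines, group mean). The IRR_6w points of Irgm1, Irgm2, Iigp1, Gm4951 and F830016B08Rik all lie above those of Control_6w, and the points of Tgtp1 and Tgtp2 overlap.

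At 6 weeks after irradiation 7 of the 9 members, the regulators, the chromosome 18 effectors and Ifi47, stood at higher mean levels than in controls, 2 of them past the test, and the Tgtp pair did not. Summed over the 9 members, the level was 175, 155, 226 and 237 CPM in the Control_6w hearts and 364, 644, 550.3 and 842 CPM in the IRR_6w hearts. With a call defined as a fold change above 2 or below 0.5 and an adjusted p below 0.05 in edgeR's quasi-likelihood test, 2 of the 9 members, F830016B08Rik and Irgm1, were called higher and none lower. Over all genes tested, 0.237% were called higher and 0.0187% lower in this comparison. The groups did not overlap for 5 of the 9 members, each of them higher after irradiation, against 4.07% of all genes. Unadjusted p-values were below 0.05 for 6 of the 9, all higher, against 5.43% of all genes. The log2 fold change (log2FC below) was above 0 for 7 of the 9, against 43.8% of all genes, with a median of 1.39 over the members and -0.09 over all tested genes.

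Irgm1, a regulator that localizes to the Golgi and to lysosomes and that has been tied to autophagy, was measured at 37.6, 26.8, 30.9 and 30.9 CPM in Control_6w and at 52.0, 128, 100.1 and 166 CPM in IRR_6w. The groups did not overlap, and IRR_6w 1 was the lowest irradiated heart. The log2FC was 1.82 (SE 0.342, edgeR adjusted p = 0.0468), a 3.53-fold higher level. This call lay close to the threshold, and it was lost with a block for replicate number (log2FC 1.77, edgeR adjusted p = 0.131). It was kept in 3 of 14 fits that left out 1 library, those without Control_1d 1, IRR_1d 3 or IRR_6w 1, and adjusted p ranged from 0.00839 to 0.193 over the 14, with a log2FC of 1.56 to 2.06.

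Irgm2, a second regulator, stood at 38.3, 35.7, 38.7 and 53.5 CPM in Control_6w and at 72.7, 112, 102 and 129 CPM in IRR_6w, so that the lowest irradiated heart was above the highest control. Its log2FC of 1.32 (SE 0.268) did not pass the test (edgeR adjusted p = 0.0603). Igtp, the third regulator, which resides at the endoplasmic reticulum, stood at 12.6, 20.6, 49.8 and 19.99 CPM in Control_6w and at 56.8, 94.98, 41.3 and 78.2 CPM in IRR_6w. The groups overlapped through 1 control, Control_6w 3, the heart with the thymus transcripts. Igtp had a log2FC of 1.39 (SE 0.470, edgeR adjusted p = 0.326), and without Control_6w 3 it was 1.93 (adjusted p = 0.0880).

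Iigp1 is an effector that coats the vacuole of Toxoplasma. It was measured at 52.0, 45.1, 40.2 and 74.1 CPM in Control_6w and at 126, 161, 157 and 280.0 CPM in IRR_6w. No irradiated heart fell within the control range. The log2FC of 1.78 (SE 0.382) did not pass the test (edgeR adjusted p = 0.0709).

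F830016B08Rik, a neighbour of Iigp1 with a lysine-class loop, had the largest 6-week change of the family. It was measured at 2.28, 3.59, 1.59 and 5.92 CPM in Control_6w and at 11.7, 72.5, 64.3 and 85.2 CPM in IRR_6w. The groups did not overlap, and IRR_6w 1 lay far below the other 3 irradiated hearts. The log2FC was 4.12 (SE 0.586, edgeR adjusted p = 0.0188), a 17.4-fold higher level with a 95% confidence interval of 2.87 to 5.38 on the log2 scale. The call was kept in 10 of 14 fits that left out 1 library and was lost without Control_6w 1 (adjusted p = 0.0752), Control_6w 2 (0.1005), IRR_6w 3 (0.0642) or IRR_6w 4 (0.0567), while the log2FC stayed between 3.88 and 4.55. In these 4 fits edgeR called no gene of all tested.

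Gm4951, the close relative of Iigp1, was measured at 1.45, 1.99, 4.53 and 2.56 CPM in Control_6w and at 12.2, 10.8, 10.2 and 25.1 CPM in IRR_6w. The lowest irradiated heart was above the highest control. The log2FC of 2.46 (SE 0.605) did not pass edgeR's test (adjusted p = 0.118). Ifi47, an interferon gamma-induced GTPase, stood at 18.3, 6.88, 39.9 and 11.4 CPM in Control_6w and at 16.2, 30.4, 54.9 and 71.3 CPM in IRR_6w, and the groups overlapped. As for Igtp, the highest control was Control_6w 3. The log2FC of Ifi47 was 1.17 (SE 0.601, edgeR adjusted p = 0.616) and 1.83 without that heart (adjusted p = 0.249). Other libraries moved it down, to 0.85 without Control_6w 2 and 0.82 without IRR_6w 4. Without Control_1d 1, IRR_6w 3 and IRR_6w 4 it was 0.28.

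The Tgtp pair, first described as GTPases specific to T cells and known as vacuole-loading effectors, showed no such difference in its values. Tgtp1 stood at 5.40, 4.13, 7.99 and 15.3 CPM in Control_6w and at 4.01, 8.602, 14.7 and 4.65 CPM in IRR_6w. Tgtp2 stood at 7.53, 10.6, 12.01 and 23.3 CPM in Control_6w and at 11.9, 25.4, 6.48 and 2.61 CPM in IRR_6w. Both genes overlapped fully between the groups, and IRR_6w 4, the highest library of the family as a whole, was the lowest for Tgtp2. The log2FC was -0.04 for Tgtp1 (95% confidence interval -1.13 to 1.05) and -0.20 for Tgtp2 (-1.93 to 1.53). Counted as 1 gene, the pair had a log2FC of -0.14 (SE 0.517, edgeR adjusted p = 0.962, interval -1.25 to 0.969). Scaled by library totals, Tgtp1 came out at 0.19, so its direction depended on the scaling. The lowest Tgtp2 values after irradiation, 6.48 and 2.61 CPM, were in IRR_6w 3 and IRR_6w 4, which stood apart by genes at 3 or fewer counts. Without them and Control_1d 1, the log2FC was 0.49 for Tgtp2 and -0.38 for Tgtp1. The direction of Tgtp2 thus depended on the libraries kept. Whether the pair differed from the other members was not tested.

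**Figure D2:**
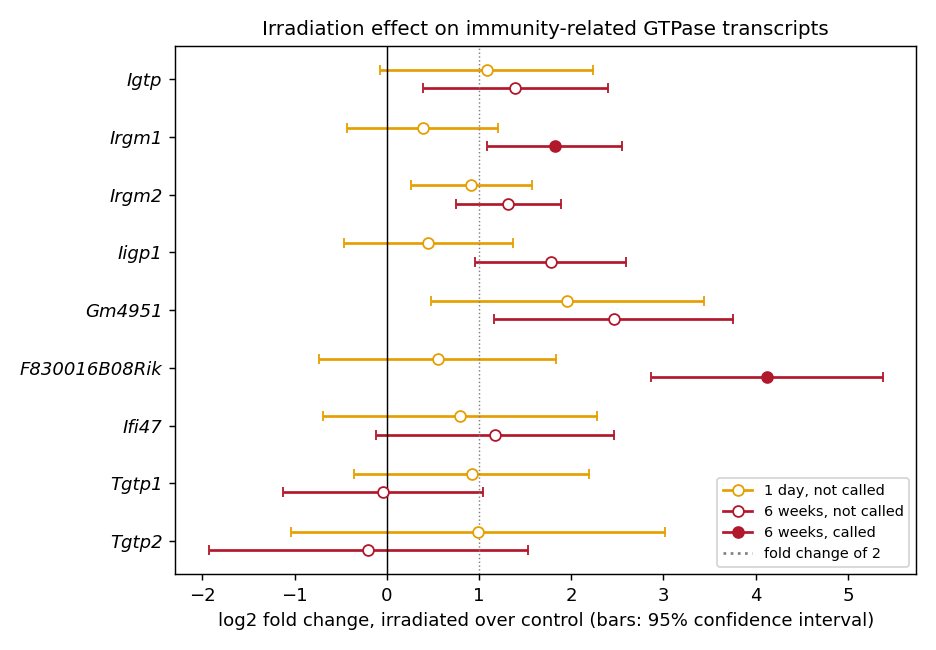
Log2 fold change (log2FC) of each IRG gene between irradiated and control hearts at 1 day (orange) and 6 weeks (red), with the 95% confidence interval of edgeR's fit; filled points passed the call. F830016B08Rik at 4.12 and Irgm1 at 1.82 were called at 6 weeks, none was called at 1 day, and the 6-week intervals of Ifi47, Tgtp1 and Tgtp2 include 0.

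The set of calls depended on the test, and 4 members had an edgeR adjusted p between 0.0188 and 0.0709. DESeq2 called 5 members higher at 6 weeks (1.88% of its tested genes were called higher), adding Irgm2 (DESeq2 adjusted p = 0.000892), Iigp1 (0.00128) and Gm4951 (0.00287) to Irgm1 and F830016B08Rik. Limma-voom called none of the members and 18 of 16034 genes, with adjusted p = 0.0724 for Irgm1 and 0.150 for F830016B08Rik, although 7 members had an unadjusted p below 0.05. Without Control_6w 3 and IRR_6w 1, edgeR called 3 members, Irgm1, Irgm2 and F830016B08Rik, and 133 of 15257 genes in all, against 41 of 16034 in the fit with every library. When Control_1d 1, IRR_6w 3 and IRR_6w 4 were left out, it called no member and no gene of 16535, and F830016B08Rik stood at 3.66 (adjusted p = 0.186) and Irgm1 at 1.51 (0.340), with 2 IRR_6w hearts left. Igtp, Ifi47, Tgtp1 and Tgtp2 were called in none of these fits.

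**Figure D3:**
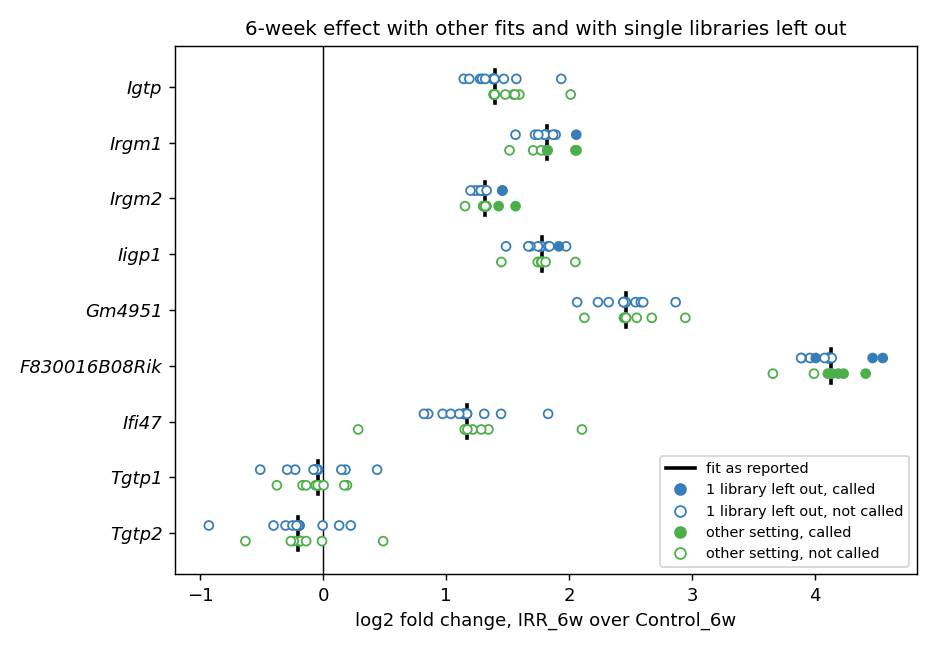
Log2 fold change of each IRG gene at 6 weeks in the fit reported (black bar), in 14 fits with 1 library left out (blue) and with 10 other settings or sets of libraries (green); filled points passed the call. The values of the 7 genes at the top stay above 0 in every fit, those of Tgtp1 and Tgtp2 lie on both sides of 0, and F830016B08Rik was called in 10 of the 14 and 7 of the 10 fits.

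Macrophage transcripts stood at higher levels in the same hearts, though none of the 10 markers was called. Their sum was 707, 750.3, 294 and 725 CPM in Control_6w and 1207, 1582, 1366 and 1570 CPM in IRR_6w. All 10 had a log2FC above 0 (43.8% of all genes did), 6 did not overlap between the groups (4.07% of all genes, higher), and the median was 1.16 (-0.09 over all genes). Adgre1, the F4/80 antigen of mature macrophages, stood at 1.97 (SE 0.413, edgeR adjusted p = 0.0663). Of the markers of the other cell types, 1 was called at 6 weeks, the germ cell gene Oaz3, which was lower after irradiation (edgeR adjusted p = 0.0250). The 6 germ cell markers summed to 49.3, 51.8, 31.3 and 0.202 CPM in Control_6w and to at most 0.361 CPM in IRR_6w. All 7 cardiomyocyte markers had a log2FC below 0 (median -0.62), and all 6 B cell markers (0.94) and all 5 neutrophil markers tested (1.21) had one above 0, as did 5 of 6 fibroblast markers (0.41). In each of these lists the sums overlapped between the groups, at 4248 to 38126 CPM in Control_6w and 7948 to 26522 CPM in IRR_6w for the cardiomyocyte markers, 18.5 to 651 and 48.8 to 869 CPM for the B cell markers, and 7.95 to 28.7 and 13.7 to 73.5 CPM for the neutrophil markers. The atrium sums were 12.02, 19.5, 332 and 190.4 CPM in Control_6w and 2812, 22.0, 9.91 and 9.87 CPM in IRR_6w, high in IRR_6w 1 and lower in the other irradiated hearts than in 2 of the controls. At 1 day the macrophage sums overlapped, at 645 to 867 CPM in Control_1d and 727 to 879 CPM in IRR_1d. The endothelial sums did not overlap, at 1464 to 1737 CPM in Control_1d and 1048 to 1256 CPM in IRR_1d. Those of T and NK cells did not either, at 3.42 to 14.2 and 2.12 to 2.74 CPM. At 1 day none of 6 B cell markers had a log2FC above 0 (median -3.50). Their sums overlapped, at 343, 18.3 and 31.4 CPM in Control_1d and 11.9, 24.1 and 11.2 CPM in IRR_1d, the high value being Control_1d 1. A log2FC above 0 was seen for all 6 fibroblast markers (0.66) and 7 of 10 macrophage markers (0.53), against 55.1% of all genes. None of the markers in these lists was called at 1 day. The 12 T and NK cell markers summed to 22.2 to 29.6 CPM in IRR_6w and to 5.25, 6.12, 1708 and 21.9 CPM in Control_6w, the high value being Control_6w 3. Among the markers of the 1-day hearts, 1 of the 12 was at 0 in all of Control_1d and 2 in all of IRR_1d. The part of these cell types in the IRG levels was not tested.

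One day after irradiation no member was called (0.0249% of all genes were called higher), 2 had an unadjusted p below 0.05 (1.94% of all genes were so and higher), and DESeq2 also called none of the 9 (0.162% of its genes were called higher). All 9 log2FCs were above 0, as were 55.1% of those of all genes, and their median was 0.91 against 0.06 for all genes. The groups did not overlap for 3 members, Irgm2, Gm4951 and Tgtp1, against 6.51% of all genes. Every member had an adjusted p of 1 in edgeR's test. Without IRR_1d 3, no member had an unadjusted p below 0.05, 8 of the 9 log2FCs were above 0 and their median was 0.54. With Control_1d 1, IRR_1d 2 or Control_6w 3 left out alone, 3 members had an unadjusted p below 0.05.

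The log2FC at 1 day was lower without 1 heart, IRR_1d 3, for every member but F830016B08Rik. Tgtp1 (0.92 to 0.89) and Tgtp2 (0.99 to 0.80) fell less than Igtp, Irgm1, Irgm2, Iigp1, Ifi47 and Gm4951. This heart also had the highest atrium and brown fat marker sums of the 1-day hearts, 3000.0 CPM of fibroblast markers against 1651 and 1936 CPM in the other IRR_1d hearts, and the lowest cardiomyocyte sum at 1 day, 14470 CPM. The part of these tissues in the IRG levels was not tested. Irgm2 stood at 41.0, 35.1 and 40.8 CPM in Control_1d and at 63.9, 48.7 and 108 CPM in IRR_1d (log2FC 0.91, SE 0.307). Gm4951 stood at 1.82, 3.32 and 2.16 CPM in Control_1d and at 4.76, 3.52 and 19.995 CPM in IRR_1d (1.96, SE 0.691). These were the 2 members with an unadjusted p below 0.05. In both genes the lowest irradiated heart was not far above the highest control, and IRR_1d 3 was the highest heart by a wide margin. Without IRR_1d 3, the log2FC was 0.54 for Irgm2 and 0.78 for Gm4951. Tgtp1 stood at 2.94, 3.52 and 5.003 CPM in Control_1d and at 6.31, 7.80 and 7.59 CPM in IRR_1d, with no overlap and no heart apart from the others (log2FC 0.92, SE 0.596, and 0.89 without IRR_1d 3).

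For the other regulators, Igtp stood at 20.9, 11.7 and 16.2 CPM in Control_1d and at 28.5, 14.5 and 60.4 CPM in IRR_1d (log2FC 1.08, SE 0.541). Irgm1 stood at 51.0, 35.0 and 32.1 CPM in Control_1d and at 41.8, 36.4 and 76.2 CPM in IRR_1d (0.39, SE 0.384). Both overlapped between the groups and were highest in IRR_1d 3, and without that heart they came to 0.41 and -0.0037. Without Control_1d 1 they came to 1.31 and 0.62. Ifi47 stood at 16.8, 6.14 and 6.47 CPM in Control_1d and at 9.85, 10.2 and 30.9 CPM in IRR_1d. Its log2FC was 0.79, 0.04 without IRR_1d 3 and 1.43 without Control_1d 1, its high control.

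Iigp1 was measured at 187, 66.3 and 75.2 CPM in Control_1d and at 143, 99.0 and 207 CPM in IRR_1d. Its high control was Control_1d 1, and the log2FC was 0.45 with that library, 1.08 without it and 0.15 without IRR_1d 3. Control_1d 1 also had 343 CPM of B cell markers, against 18.3 and 31.4 CPM in the other Control_1d hearts. Its neutrophil markers summed to 39.3 CPM against 8.65 and 5.85 CPM, and the part of these cells in the IRG levels was not tested. F830016B08Rik was measured at 13.5, 5.94 and 10.5 CPM in Control_1d and at 19.7, 12.4 and 11.8 CPM in IRR_1d, with overlapping groups (0.55, SE 0.599, and 0.69 without IRR_1d 3). The log2FC of F830016B08Rik was 0.29 without IRR_1d 1, 0.31 without Control_1d 2 and 0.84 without Control_1d 1. Tgtp2 had 3 counts (0.188 CPM) in Control_1d 1 against 9.66 and 11.1 CPM in the other controls, and 13.3, 10.9 and 17.1 CPM in IRR_1d. Tgtp2 was thus at the floor in the library with the most genes at 3 or fewer counts, and its log2FC was 0.99 with that library and 0.41 without it. The value was 1.29 without Control_1d 2, 1.52 without Control_1d 3, 0.80 without IRR_1d 3 and 2.60 with limma-voom.

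The test of whether the irradiation effect differed between 6 weeks and 1 day called no member and no other gene in edgeR (0% of all genes). An unadjusted p below 0.05 was reached by 3 members, each with the larger effect at 6 weeks, against 2.13% of all genes. F830016B08Rik had a difference of effects of 3.57 on the log2 scale (SE 0.817, edgeR adjusted p = 0.505). For Irgm1 it was 1.43 (SE 0.509) and for Iigp1 1.33 (SE 0.569), each with an edgeR adjusted p of 0.990. Without Control_1d 1, the high 1-day control of Iigp1, the value was 0.69 for Iigp1 and 1.20 for Irgm1. Over the 14 fits that left out 1 library, 2 or 3 members had an unadjusted p below 0.05, and 2 in the fit without Control_1d 1. Without Control_1d 1, IRR_6w 3 and IRR_6w 4, 1 member did, and no gene of 16535 was called. DESeq2 called F830016B08Rik in this test (DESeq2 adjusted p = 0.0106, 0.202% of its genes called higher), as did edgeR without Control_6w 3 and IRR_6w 1 (3.69, adjusted p = 0.0232), a fit that called 14 of 15257 genes. A larger irradiation effect at 6 weeks than at 1 day was therefore called for F830016B08Rik only by these fits, and for the other members by none of the fits run.

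The levels of F830016B08Rik differed in value between the time points in both the control and the irradiated hearts. Between the controls, its values of 1.59 to 5.92 CPM at 6 weeks all lay below the 5.94 to 13.5 CPM at 1 day (log2FC -1.58, SE 0.567, edgeR adjusted p = 0.902; groups did not overlap in this direction for 2.54% of all genes), although the gap between the nearest hearts was small. Between the irradiated hearts, the 6-week level was higher by 1.99 on the log2 scale (SE 0.591, edgeR adjusted p = 0.530), and the groups overlapped through IRR_6w 1. Without Control_6w 3 and IRR_6w 1 it was called higher, at 2.34 (edgeR adjusted p = 0.0155), in a fit that called 132 of 15257 genes between these groups. The 17.4-fold difference at 6 weeks was thus measured against a control level 0.335 times that at 1 day.

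Across time, with every library kept, edgeR called no member between the controls or between the irradiated groups (0% and 0.0312% of all genes were called higher). For the controls, 2 members had an unadjusted p below 0.05, both lower at 6 weeks (1.75% of all genes were so), F830016B08Rik and Iigp1 (-1.05, SE 0.398), and the median of the 9 was 0.13 against 0.12 for all genes. Without Control_1d 1, neither had an unadjusted p below 0.05, and the log2FC was -0.42 for Iigp1 and -1.30 for F830016B08Rik. For the irradiated groups, 2 members had an unadjusted p below 0.05, both higher at 6 weeks (4.2% of all genes were so), F830016B08Rik and Irgm1 (1.11, SE 0.368, edgeR adjusted p = 0.603). That count rested on the libraries kept. It was 6 without IRR_1d 3, 4 without Control_6w 3 or without IRR_6w 1, 5 without both of these, and 0 without Control_1d 1, IRR_6w 3 and IRR_6w 4. DESeq2 called no member in either comparison (0.0741% and 0.862% of its genes were called higher), and the comparisons share their control or irradiated groups with those above.

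Within the family, levels were correlated over the 14 libraries, least so for Tgtp2. The Pearson correlations of log2 CPM over the 36 pairs of members ranged from -0.34 to 0.91 with a median of 0.567. Irgm2 was closest to Gm4951 (r = 0.910) and to Irgm1 (r = 0.908). Tgtp1 and Tgtp2 had r = 0.531 with each other, and Tgtp2 and Iigp1 had the lowest value, -0.340. By rank (Spearman) the pair of Tgtp2 and Iigp1 came to -0.0901. Tgtp2 was at the floor in Control_1d 1, at 0.188 CPM. The points share their libraries and groups, so these values describe this set of hearts. By mean correlation with the 9 members, the 5 most alike genes outside the family were Ifit3b (0.705), Ifit1 (0.690), Glipr2 (0.688), Ifit3 (0.687) and Lgals3bp (0.681), against a median of -0.0151 over all tested genes. Ifit1 and Ifit3 are antiviral proteins induced by interferon.

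**Figure D4:**
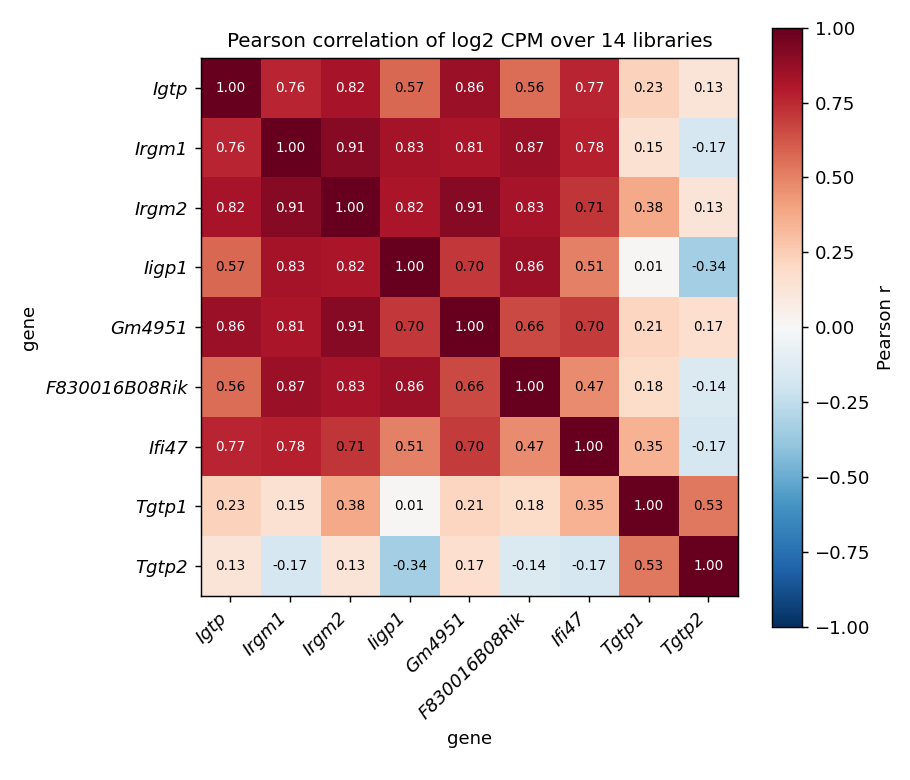
Pearson correlation of log2 CPM over the 14 libraries for each pair of IRG genes (color scale from -1 to 1). Irgm2 with Gm4951 (0.91) and Irgm1 (0.91) are the closest pairs, and the rows of Tgtp2 hold the negative values.

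Of the other 9 IRG genes looked for, Gm12187 and Gm18853 did not pass the filter and none of the remaining 7 was called in any comparison. Gm12250, annotated as a processed pseudogene with an open reading frame of the lysine class, was measured at 0.761, 0.612, 2.61 and 2.49 CPM in Control_6w and at 9.91, 17.4, 28.8 and 34.9 CPM in IRR_6w. The groups did not overlap (log2FC 3.80, SE 0.934, edgeR adjusted p = 0.118), and at 1 day they did not either, at 0, 0.704 and 1.85 CPM against 2.77, 3.86 and 15.4 CPM. Gm5431 stood at 2.77 at 6 weeks (adjusted p = 0.301), again without overlap. Gm12185, 9930111J21Rik1 and 9930111J21Rik2 stood at 1.75, 1.23 and 0.74, the last also without overlap. Irgq, a distant member, came to 0.03 (SE 0.207). Irgc1, a relative of the testis, stood at 46.7, 19.6, 11.7 and 0 CPM in Control_6w and at 0 to 0.0602 CPM in IRR_6w. Its 3 positive controls were also the 3 with 31.3 to 51.8 CPM of 6 germ cell markers, against at most 0.361 CPM in every other library.

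Along the interferon pathway, no gene of the lists taken was called at 6 weeks. Of 10 ligand genes none passed the filter. Ifng, Ifna1, Ifna2, Ifna4, Ifna5, Ifne, Ifnl2 and Ifnl3 stood at 0 counts in all 14 libraries, which allows up to 3 counts in each. Ifnk had 6 counts in Control_1d 3 and 1 in IRR_1d 1. Ifnb1, interferon beta, was counted only in IRR_6w, at 0, 2, 36 and 20 counts, and its higher values were in IRR_6w 3 and IRR_6w 4, which also stood apart by genes at 3 or fewer counts.

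The 7 receptor and kinase genes had a median log2FC of 0.18 at 6 weeks, led by the kinases Tyk2 (0.64, SE 0.233, edgeR adjusted p = 0.388) and Jak2 (0.53) and the type I receptor chain Ifnar1 (0.41). Among the transcription factors, Stat2 stood at 27.3, 28.1, 36.4 and 25.4 CPM in Control_6w and at 39.9, 58.7, 53.9 and 85.8 CPM in IRR_6w, without overlap (1.02, SE 0.276, edgeR adjusted p = 0.158). Its partner in type I signalling, Irf9, stood at 1.14 (adjusted p = 0.170) and Irf8 at 1.36 (0.353), with overlapping groups. Irf1 stood at -0.44 (adjusted p = 0.730).

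Among 6 inhibitors of the pathway, Usp18, which damps type I receptor signalling, stood at 7.83, 5.50, 18.98 and 4.85 CPM in Control_6w and at 11.6, 42.4, 79.6 and 71.5 CPM in IRR_6w (log2FC 2.46, SE 0.663, edgeR adjusted p = 0.156). The next by p were Ptpn2 (-0.57) and Socs3 (0.53), and the median of the 6 was -0.30. The guanylate-binding proteins, the GTPases that act with the IRGs at the vacuole, had a median of 1.08 over 11 genes at 6 weeks, and 3 did not overlap (4.07% of all genes, higher). Gbp3 stood at 19.6 to 29.9 CPM in Control_6w and 49.6 to 79.7 CPM in IRR_6w (1.48, SE 0.356, edgeR adjusted p = 0.116), Gbp6 at 2.07 (0.118) and Gbp7 at 1.08 (0.369). At 1 day the median of the 11 was 1.09, with 4 not overlapping (6.51% of all genes, higher), among them Gbp2 at 1.60 and Gbp3 at 1.58 (edgeR adjusted p = 0.764 and 0.802). The 13 autophagy genes, whose products place the IRG effectors on vacuoles, had a median of -0.06, with Map1lc3a (-0.88), Atg5 (-0.25) and Becn1 (0.22) first by p and adjusted p of at least 0.787.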

How the data were processed

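Per the methods and the labels, the authors checked reads with FastQC 0.11.8, trimmed them with Trim Galore 0.6.1, aligned them with STAR 2.5.0a to mm10, and took gene counts from HTSeq. The deposited table held whole-number counts of 14 libraries, not normalized by the authors. Strandedness and counting mode are not given in the sources used here. A read that fits several near-identical genes can be lost in such counting, which would lower Tgtp1 and Tgtp2. Counts were tested here with edgeR 4.0.16 in R 4.3.3 (filterByExpr, TMM, 1 mean per group over all 14 libraries, quasi-likelihood test), with Benjamini-Hochberg adjustment over 16034 genes. A call needed a fold of over 2 or under 0.5 and an adjusted p under 0.05. The alternatives were RLE size factors, library totals, no filter, DESeq2 1.42.0, limma-voom (limma 3.58.1), only the 2 groups compared, a replicate block, Tgtp1 and Tgtp2 summed, and fits without single libraries or the libraries that stood apart, the set of Control_1d 1, IRR_6w 3 and IRR_6w 4 being chosen after seeing the data, as was the length of all exons for Iigp1. By counting alone, 0 counts allow up to 3 at 95% confidence. No libraries were identical. Sequences came from RefSeq and GENCODE M21 with Biopython 1.88. Members and lists were chosen with earlier results of these data known. All 9 members, all other IRG genes, the 3 pathway genes of each list with the smallest p at 6 weeks, Irf1 and the 5 genes most alike by mean correlation were named. Adgre1, Oaz3 and 1-day Gbp2 and Gbp3 were named after their values were seen. One pathway gene is not reported here.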

Additional observations from a re-analysis of the deposited data

Results flagged for a closer look

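In groups of 4 libraries, 18 sets of member values were examined for a sample far from the others, and 2 were found. Chance flags about 1 in 20 groups. Irgm2 in Control_6w 4 was at 53.5 CPM, above the 35.7 to 38.7 CPM of the other controls. Gm4951 in IRR_6w 4 was at 25.1 CPM, above the 10.2 to 12.2 CPM of the other irradiated hearts.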

How the results depend on the processing

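The number of members called at 6 weeks was 2 in the fit reported, with 41 of 16034 genes called in all. It was 4 without a filter on low counts (138 of 29699 genes), 5 with DESeq2 (344 genes), 0 with limma-voom (18 of 16034), 0 with only the 2 groups compared (13 of 14610) and 0 without Control_1d 1, IRR_6w 3 and IRR_6w 4 (no gene). With 1 library left out it ranged from 0 to 4, being 0 without Control_6w 1, Control_6w 2, IRR_6w 3 or IRR_6w 4, where no gene was called, and 4 without IRR_6w 1 (98 of 15625 genes). Between the irradiated groups it was 1 without Control_6w 3 and IRR_6w 1 (132 of 15257 genes, against 6 of 16034 reported), and for the change of the irradiation effect 1 with that set left out and 1 with DESeq2, against 0 reported; the gene was F830016B08Rik each time. The cause was not tested. With library totals, 3 members were called at 6 weeks, Irgm2 being added (edgeR adjusted p = 0.0495), with 83 of 16034 genes in all. The median over all genes at 6 weeks moved on the log2 scale from -0.09 to 0.14 with that scaling.

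Same-numbered libraries were not paired, since 7 of 19 pairs correlated above 0.1 (r from -0.305 to 0.425) and 3 of 14 libraries were closest to their own number. With the replicate block, 1 member was called at 6 weeks, F830016B08Rik (edgeR adjusted p = 0.0319), and Irgm1 lost its call (0.131). Directions turned in that fit for Tgtp1 at 6 weeks (0.0032), Irgm2 (-0.0400) and Gm4951 (-0.20) between controls, and Tgtp1 between the irradiated groups (-0.0605).

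Directions turned only for uncalled values. For IRR_6w against Control_6w, Tgtp1 came to 0.19 with library totals and 0.17 without Control_6w 3 and IRR_6w 1, and Tgtp2 to 0.49 without Control_1d 1, IRR_6w 3 and IRR_6w 4. Between controls, Gm4951 came to -0.28 without the first of these sets and -0.0467 without the second. Between the irradiated groups, Tgtp1 came to -0.10 with limma-voom, -0.10 when summed with Tgtp2 and -0.20 without the second set, which also turned Iigp1 (-0.0536) and Tgtp2 (0.44). For the change of effect, that set gave 0.0776 for Tgtp2 and -1.15 for Ifi47.

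With 1 library left out, the ranges that crossed 0 were -0.51 to 0.44 for Tgtp1 and -0.93 to 0.22 for Tgtp2 at 6 weeks, -0.0037 to 0.62 for Irgm1 at 1 day, -0.0655 to 0.17 for Irgm2 and -0.28 to 0.43 for Gm4951 between controls, -0.0122 to 0.58 for Iigp1, -0.33 to 0.36 for Tgtp1 and -0.97 to 0.0860 for Tgtp2 between the irradiated groups, and -0.0908 to 0.98 for Igtp and -0.26 to 1.13 for Ifi47 in the change of effect.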
